A study of Mus musculus with 186 samples.

Results

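Small leucine-rich proteoglycans (SLRPs) are secreted matrix proteins built around a core of leucine-rich repeats, most of which carry sulfated sugar chains. Transcripts of 9 SLRP genes were examined in lung and skin of mice given bleomycin: Dcn (decorin), Bgn (biglycan), Aspn (asporin), Lum (lumican), Fmod (fibromodulin), Prelp (prolargin), Omd (osteomodulin), Ogn (osteoglycin, or mimecan) and Podn (podocan). They are a list of names, found by pairing the Ensembl IDs of the table of expected counts with GENCODE M21 symbols. Each symbol matched 1 ID, so that they make up 9 of 22095 gene IDs in the table, and all 9 passed the filter on low counts in both tissues.

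The tissues came from female C57BL/6 mice of about 12 weeks. They received subcutaneous bleomycin, an antibiotic that breaks DNA and is used to provoke fibrosis, at 10 mg/kg/day or PBS, with 5 injections a week over 2 weeks from day 0. Mice killed on day 7 or 14 had no oral dosing. In the groups of days 21, 28 and 42, the PBS and bleomycin mice were dosed by mouth from day 12 with vehicle. A further 2 bleomycin groups, of days 21 and 28, received SB525334 at 30 mpk BID in its place. The last oral dose fell on day 27 in the groups of days 28 and 42. SB525334 blocks ALK5, the receptor kinase through which TGF-beta signals to SMAD proteins. The superior lung lobe and a skin punch biopsy were sequenced as bulk total RNA after depletion of ribosomal RNA, 93 libraries a tissue and 186 in all. In each tissue the numbers of PBS and bleomycin libraries were 8 and 7 on day 7, 8 and 8 on day 14, 8 and 7 on day 21, 7 and 7 on day 28 and 8 and 8 on day 42, with 9 SB525334 libraries on day 21 and 8 on day 28. All groups were of 1 strain and sex, SB525334 was given to no PBS mice, and in bulk RNA fewer cells of a type cannot be told apart from less RNA per cell.

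The repeat core of these proteins binds collagen and sets the thickness and spacing of its fibrils. Decorin, biglycan and asporin (class I) also bind TGF-beta, and soluble biglycan is a ligand of the innate receptors TLR2 and TLR4. Lumican, fibromodulin, prolargin and osteomodulin (class II) can carry keratan sulfate or tyrosine sulfate, and decorin and lumican are abundant products of dermal fibroblasts, and mice that lack either gene have fragile skin.

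Several of the genes lie side by side in the mouse genome (GRCm38 coordinates). On chromosome 13, Aspn (49544443 to 49567565), Omd (49582462 to 49592822) and Ogn (49608046 to 49624501) are read from the plus strand, 14897 and 15224 bp apart, inside the span of Cenpp (49464023 to 49652785), which is read from the minus strand. Dcn (97479609 to 97518143) and Lum (97565128 to 97572703) are neighbours on the plus strand of chromosome 10, and Prelp (133910304 to 133921414, minus strand) and Fmod (134037254 to 134048277, plus strand) are 115840 bp apart on chromosome 1. Bgn stands alone on chromosome X (73483602 to 73495933, plus strand). The GENCODE model of Podn on chromosome 4 (108014791 to 108096445, minus strand) overlaps that of Scp2 on the same strand, so that its counts may hold reads of Scp2. Whether counting used strand is not given in the sources used here, so reads of Cenpp and of the 3 genes inside it could likewise be mixed.

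RefSeq (GRCm38.p6) gave start sites for 7 of the 9 genes. The 250 bases upstream of 4 of them are shown, those of the neighbours Aspn, Omd and Ogn because they moved together in skin and that of Fmod because it held the most SMAD boxes of the 7. Capitals mark CAGAC, the SMAD box, or its reverse complement GTCTG, and TATAAA, the TATA box, or its reverse complement TTTATA. The windows are chr13:49544193-49544442 for Aspn, chr13:49582212-49582461 for Omd, chr13:49607765-49608014 for Ogn and chr1:134037004-134037253 for Fmod, all on the plus strand.
Aspn: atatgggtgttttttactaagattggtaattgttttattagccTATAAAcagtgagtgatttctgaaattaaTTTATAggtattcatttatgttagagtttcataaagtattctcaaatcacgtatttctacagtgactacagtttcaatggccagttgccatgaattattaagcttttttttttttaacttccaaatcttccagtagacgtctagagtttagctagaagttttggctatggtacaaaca
Omd: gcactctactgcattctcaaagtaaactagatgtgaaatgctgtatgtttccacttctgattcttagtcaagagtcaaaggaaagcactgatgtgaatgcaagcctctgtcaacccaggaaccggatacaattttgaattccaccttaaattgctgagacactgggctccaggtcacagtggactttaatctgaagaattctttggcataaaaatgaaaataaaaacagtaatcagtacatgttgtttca
Ogn: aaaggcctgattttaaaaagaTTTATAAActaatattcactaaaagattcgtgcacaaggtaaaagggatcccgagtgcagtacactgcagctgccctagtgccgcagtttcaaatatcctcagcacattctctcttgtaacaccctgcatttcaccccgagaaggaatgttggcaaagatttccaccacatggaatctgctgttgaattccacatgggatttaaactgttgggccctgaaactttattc
Fmod: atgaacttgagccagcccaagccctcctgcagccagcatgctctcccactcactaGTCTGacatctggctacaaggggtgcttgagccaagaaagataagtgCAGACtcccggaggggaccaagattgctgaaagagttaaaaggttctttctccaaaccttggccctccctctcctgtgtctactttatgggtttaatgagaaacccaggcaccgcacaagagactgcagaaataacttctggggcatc
Both strands of each window were searched. The Fmod window held 2 SMAD boxes and that of Prelp held 1, while the windows of Bgn, Ogn, Aspn, Omd and Podn held no match. Over all 32851 promoter windows of this length, 42.2% held at least 1. Ogn and Aspn each held 2 matches to TATAAA, which 12.4% of all windows held, and the 2 in Ogn overlap because the letters run into their own complement. The AP-1 site TGANTCA, found in 6.75% of all windows, was in no window of these genes. A match only says that the letters are there.

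Total expected counts ran from 4.79 to 38.34 M per lung library and from 14.68 to 43.07 M per skin library. The tissues carried their labels: alveolar epithelial markers summed to between 7036 and 30680 CPM (depth-scaled counts) in lung and at most 749.6 in skin, and epidermal markers to between 7369 and 29220 CPM in skin. By a fixed rule on composition 21 lung libraries and 1 skin library stood apart. Of the lungs, 12 of day 28 had a raised share of ribosomal protein transcripts (6 of 8 SB525334, 4 of 7 bleomycin and 2 of 7 PBS libraries), 4 PBS lungs of days 7, 14 and 21 held hair or epidermal transcripts, 1 bleomycin lung of day 28 held epidermal and muscle transcripts, 1 bleomycin lung of day 42 held liver transcripts, and 3 lungs of days 7 and 14 had many counts in 10 genes. No library was left out of the values below unless stated. Some lungs with hair transcripts were high in Lum. PBS day 14 replicate 6, with 4074 CPM of hair transcripts, had 45.4 CPM of Lum against 6.32 to 9.04 CPM in 6 other lungs of its group. PBS day 28 replicate 6, which did not stand out in hair transcripts, had 86.3 CPM of Lum against 9.63 to 24.3 CPM in the others. Whether skin in a lung library raised its Lum was not tested.

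In the text, levels are CPM after TMM scaling, given as the lowest, median and highest library of a group. Differences are log2 fold changes ± standard error (SE) from the quasi-likelihood test of edgeR, fitted on all 12 groups of a tissue. The plate named in the labels, which do not say what step it belongs to, was a term of the fit. A gene is said to rise or fall where its Benjamini-Hochberg adjusted p over all tested genes was below 0.05. For each comparison the share of all tested genes that rose or fell is given as a background for the count of SLRP genes.

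The leading SLRPs differed between lung and skin of PBS mice. To set genes side by side, levels were divided by the exon length annotated for each gene. This length was 6099 bases for Bgn, 5838 for Dcn, 3615 for Prelp and 2566 for Ogn. Whether the expressed transcripts have these lengths was not tested, so the order of genes in both tissues depends on them. Per kb of exon, Ogn led in 39 PBS lungs with a median of 183 CPM per kb (150 to 208). It was followed by Prelp at 41.3 (29.8 to 59.1), Bgn at 40.0 (29.6 to 96.7), Dcn at 27.3 (18.7 to 94.3) and Aspn at 11.5 (7.08 to 17.9). The range of Ogn overlapped with that of no other member, whereas Prelp and Bgn differed by less than their spread. Podn (4.71), Lum (4.24), Omd (1.52) and Fmod (1.5) had low medians in lung.

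In 39 PBS skins Dcn led with a median of 360 CPM per kb (148 to 529), then Lum at 179 (66.8 to 338), Aspn at 58.6 (16.4 to 139), Ogn at 46.4 (22.3 to 116) and Bgn at 26.6 (17.7 to 52.1), and neighbours in this order overlapped. Prelp (12.1), Podn (6.42), Fmod (5.89) and Omd (3.04) were lower. Of the 9 genes, 8 differed between skin and lung in PBS mice, against 84.9% of all genes in the fit of both tissues, so the count was near that share. The log2 difference of skin minus lung was 5.22 ± 0.18 for Lum, 3.64 ± 0.10 for Dcn, 2.22 ± 0.13 for Aspn, 1.70 ± 0.15 for Fmod and 0.84 ± 0.14 for Omd. It was -1.95 ± 0.11 for Ogn, -1.79 ± 0.09 for Prelp and -0.92 ± 0.09 for Bgn, which were thus higher in lung, and 0.16 ± 0.11 for Podn (edgeR adjusted p = 0.185). The plot of PBS levels shows this exchange of leading genes.

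**Figure D1:**
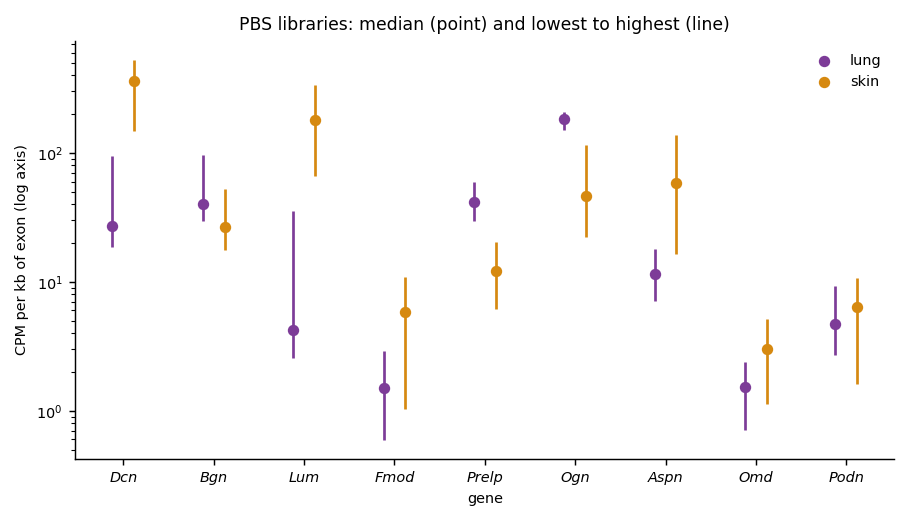
Level of each SLRP gene in PBS libraries, in CPM per kb of annotated exon on a log axis. Shown are the median (point) and the lowest to highest library (line) of 39 lungs and 39 skins. The order of genes depends on the exon lengths used. Ogn led in lung at 183 and Dcn in skin at 360. The upper ends for Lum and Dcn in lung come from PBS day 28 replicate 6, which did not stand out in hair transcripts.

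SLRP transcripts of skin dropped on days 7 and 14. On day 7 of bleomycin 4 of 9 fell and no member rose, while 20.7% of all genes fell and 25.5% rose. On day 14, the end of the injections, 8 of 9 fell, Bgn being the exception, while 28.1% of all genes fell and 31.5% rose. The median log2 fold change of the 9 was -0.67 and -1.48 on these days, against 0.02 and 0.01 over all genes.

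Among class I members, Dcn (the collagen-binding decorin of the dermis) ran from 1957 to 2639 CPM in PBS skin of day 7, with a median of 2208, and from 803 to 1611 with a median of 1083 after bleomycin. On day 14 the values were 2035, 2528 and 3052 CPM in PBS and 324, 600 and 763 CPM after bleomycin. The groups were apart on both days, at log2 fold changes of -0.99 ± 0.19 (edgeR adjusted p = 1.55e-05) and -2.11 ± 0.19 (adjusted p = 4.5e-16), the second a 4.30-fold lower level. Aspn, an SLRP of tendon and cartilage that lacks a sugar chain, had 93.8, 142 and 238 CPM in PBS skin and 36.0, 60.7 and 71.2 CPM after bleomycin on day 14. These ranges did not overlap, and the log2 fold change was -1.41 ± 0.29 (edgeR adjusted p = 1.95e-05). Bgn, the TLR ligand, had overlapping groups, with 114, 134 and 196 CPM in PBS and 99.1, 127 and 173 CPM after bleomycin, and its log2 fold change was -0.12 ± 0.17 (edgeR adjusted p = 0.566).

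Of the class II members, Lum (which with decorin organises dermal fibrils) had 393, 517 and 637 CPM in PBS skin of day 14 and 142, 280 and 306 CPM after bleomycin, and fell by 1.00 ± 0.20. Fmod, a further fibril regulator, had 18.9, 24.6 and 32.5 CPM against 4.89, 7.12 and 18.2 CPM and fell by 1.48 ± 0.30. Both pairs of groups were apart. Prelp, a heparin-binding SLRP found near basement membranes, fell by 0.93 ± 0.17 with 1 bleomycin skin at 59.3 CPM inside the PBS range of 41.2 to 68.6 CPM. Omd, best known from bone, had 3.72, 6.59 and 11.4 CPM in PBS and 0.805, 1.92 and 2.55 CPM after bleomycin and fell by 1.89 ± 0.29 (edgeR adjusted p = 4.44e-08).

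The largest drop among the 9 was that of Ogn, a class III SLRP. Its levels on day 14 were 99.1, 159 and 202 CPM in PBS skin and 14.1, 20.5 and 38.5 CPM after bleomycin, without overlap. The log2 fold change was -2.67 ± 0.25 (edgeR adjusted p = 5.81e-15), or 6.37-fold lower, after -1.33 ± 0.25 on day 7. Podn, of the podocan class, had 29.7, 34.3 and 43.5 CPM against 5.05, 8.11 and 15.2 CPM and fell by 2.08 ± 0.24, after a drop by 1.26 ± 0.25 on day 7 when the groups were already apart. Omd was the remaining member that fell on day 7, by 1.13 ± 0.29. Aspn on day 7 was at -0.67 ± 0.29 (edgeR adjusted p = 0.0532) and passed the threshold in 5 of 10 alternative fits.

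General fibroblast markers moved with these genes. Of 10 tested fibroblast markers (such as Pdgfra, Cd34 and Pi16), 8 fell on day 7 and 10 on day 14, at a median of -0.90 and -1.54. The list summed to between 1880 and 2540 CPM in PBS skin of day 14 and to between 369 and 708 CPM after bleomycin. Of its 11 genes, Tcf21 was at 0 counts in 52 of 93 skins and the others were counted in every skin. Tendon and fascia markers fell as well (5 of 6 on both days), with sums of 177 to 515 CPM in PBS and 16.4 to 40.4 CPM after bleomycin on day 14. Adipocyte markers (8 of 8) fell on day 14, with sums of 1600 to 2420 CPM in PBS and 316 to 1240 CPM after bleomycin. Epidermal markers summed to 11500 to 14800 CPM in PBS and to 17400 to 26300 CPM after bleomycin on day 14 (5 of 10 rose and 3 fell), and 6 of 7 macrophage markers rose, with median sums of 1140 and 1510 CPM. Skeletal muscle markers fell on day 7 (9 of 10, median -1.71) and in part on day 14 (5 of 10). With hair and skeletal muscle scores as terms of the fit the same members passed on both days, at -2.05 ± 0.13 for Dcn and -2.58 ± 0.23 for Ogn on day 14. The part of the fibroblast, tendon, adipocyte, epidermal and macrophage markers in the result was not tested.

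**Figure D2:**
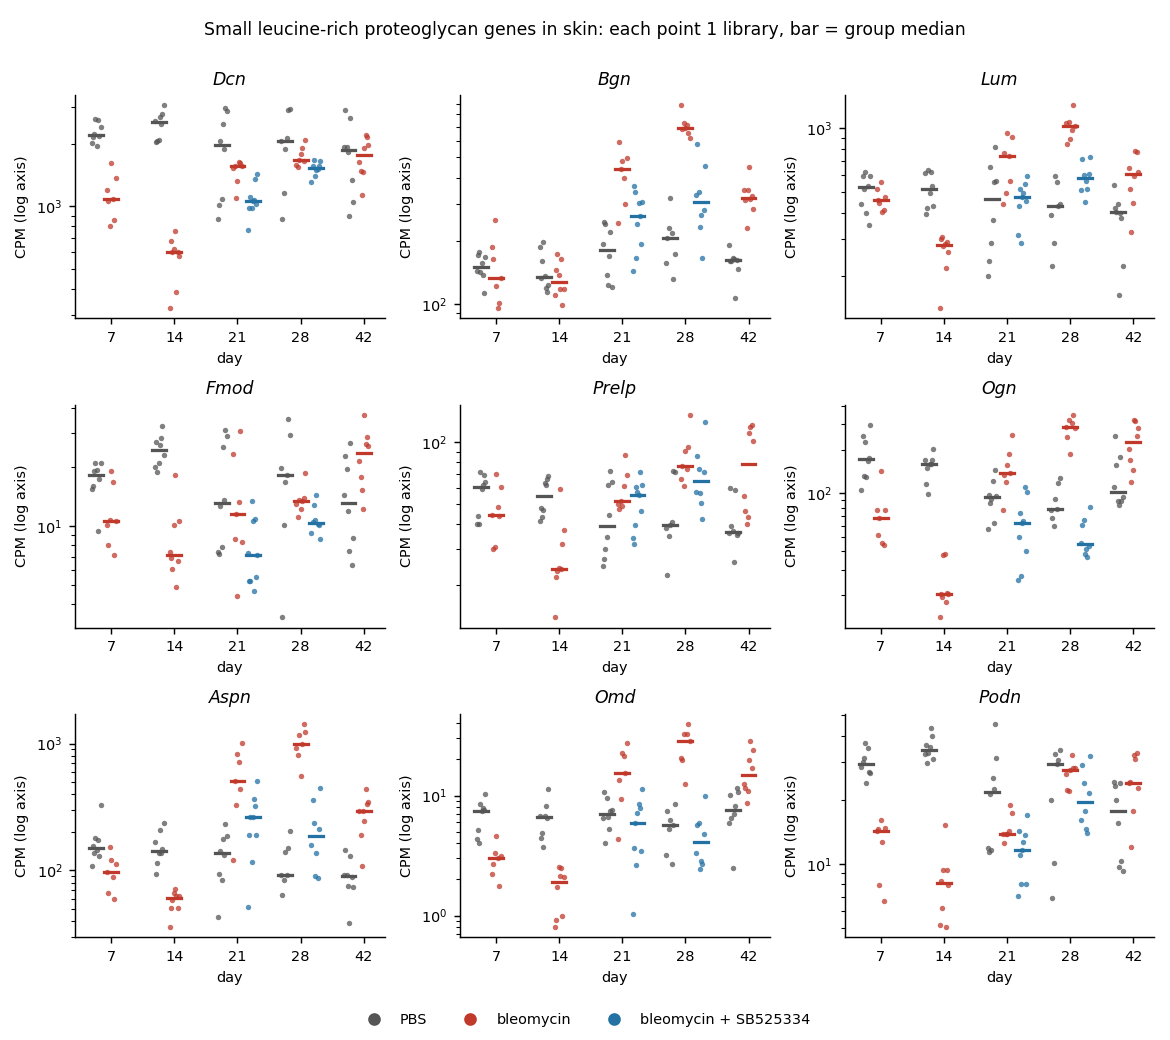
Level of each SLRP gene in every skin library, in CPM on a log axis, by day, for PBS, bleomycin and bleomycin with SB525334. Points are libraries and bars are group medians; Dcn and Ogn sit below all PBS skins on day 14, and Aspn lies between 555 and 1419 CPM on day 28, above all PBS skins.

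From day 21 on the direction turned. On days 21, 28 and 42 the same 6 genes, Bgn, Aspn, Lum, Prelp, Omd and Ogn, rose in bleomycin skin, and no member fell. The shares of all genes that rose were 20.2%, 12.7% and 5.28%, and those that fell 21%, 11.6% and 4.96%. The median of the 9 was 0.60, 1.29 and 0.74, against -0.03, -0.03 and -0.04 over all genes. Day 28 gave the highest value for each of the 6.

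Aspn showed the largest rise of the 9. Its levels on day 21 were 43.0, 137 and 234 CPM in PBS and 122, 508 and 1019 CPM after bleomycin, with 1 bleomycin skin inside the PBS range. On day 28 they were 64.2, 92.0 and 205 CPM against 555, 984 and 1419 CPM, and on day 42 they were 38.6, 90.4 and 145 CPM against 108, 296 and 440 CPM. The log2 fold change was 2.04 ± 0.30, 3.14 ± 0.33 (edgeR adjusted p = 3.46e-12) and 1.56 ± 0.29 in turn, and the value of day 28 is an 8.79-fold higher level. Bgn had 131, 205 and 318 CPM in PBS skin of day 28 and 620, 691 and 883 CPM after bleomycin, and 107, 161 and 191 CPM against 231, 321 and 448 CPM on day 42. Its groups were apart on both days and its log2 fold changes were 1.23 ± 0.18 on day 21, 1.81 ± 0.19 on day 28 and 1.07 ± 0.17 on day 42.

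The rise of Omd and Ogn followed their drop on day 14. Omd had 2.67, 5.71 and 8.47 CPM in PBS skin of day 28 and 12.5, 28.3 and 39.3 CPM after bleomycin, at 2.25 ± 0.29 (edgeR adjusted p = 4.51e-09). Ogn had 60.0, 78.8 and 128 CPM against 186, 284 and 346 CPM, at 1.69 ± 0.26 (edgeR adjusted p = 3.2e-07). For both, no bleomycin skin of day 28 lay within the PBS range. On days 21 and 42 the log2 fold changes were 1.08 ± 0.27 and 1.06 ± 0.27 for Omd and 0.68 ± 0.24 and 0.74 ± 0.24 for Ogn. The calls of Ogn on these days were lost in some fits without 1 library. Adjusted p reached 0.0755 on day 21, where bleomycin replicate 7 and PBS replicates 1 and 6 mattered, and 0.063 on day 42, where bleomycin replicate 5 and PBS replicates 7 and 8 did (limma-trend).

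Lum had 225, 428 and 594 CPM in PBS skin of day 28 and 839, 1026 and 1278 CPM after bleomycin, without overlap, at 1.29 ± 0.21 (edgeR adjusted p = 1.68e-06). Its log2 fold change was 0.60 ± 0.20 on day 21 and 0.65 ± 0.20 on day 42, where leaving out PBS replicate 5 or 8 ended the call (adjusted p up to 0.0783, limma-trend). Prelp had 22.3, 39.5 and 72.6 CPM against 60.9, 76.4 and 136 CPM on day 28, with overlapping groups, and rose by 0.50 ± 0.17, 0.95 ± 0.18 and 0.87 ± 0.17 over the 3 days. The call of Prelp on day 21 was lost without the plate term (0.41, edgeR adjusted p = 0.205) and with only the groups compared in the fit (edgeR adjusted p = 0.0519).

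Dcn, Fmod and Podn did not pass on these days. Dcn, low on day 14, had 865, 2056 and 2933 CPM in PBS skin of day 28 and 1537, 1668 and 2089 CPM after bleomycin. The bleomycin skins lay inside the PBS range, and the log2 fold change was -0.16 ± 0.19, after -0.33 ± 0.19 on day 21 and before -0.09 ± 0.18 on day 42. Fmod was at -0.14 ± 0.31, -0.41 ± 0.31 and 0.61 ± 0.29 and Podn at -0.56 ± 0.24, 0.21 ± 0.25 and 0.50 ± 0.23. On day 21 Podn passed as lower in 4 of 10 alternative fits, with values from -0.94 to -0.46. The split within class I, with Aspn and Bgn up and Dcn at its PBS level, and within class II, with Lum, Prelp and Omd up and Fmod not, did not follow the protein classes.

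PBS skin itself varied in the later groups. In them the hair list summed to between 2.07 and 27800 CPM, and Dcn in PBS skin of day 21 spanned 866 to 2970 CPM. Skeletal muscle markers were higher after bleomycin on day 21 (9 of 10 rose, median 2.67), with sums of 9.57 to 2570 CPM in PBS and 2990 to 11300 CPM after bleomycin. With hair and skeletal muscle scores as terms, Aspn (1.68 ± 0.29), Bgn (1.06 ± 0.19) and Omd (0.95 ± 0.29) still rose on day 21, Lum (0.37 ± 0.19), Prelp (0.21 ± 0.16) and Ogn (0.32 ± 0.24) did not pass, and Dcn (-0.54 ± 0.15) and Podn (-0.94 ± 0.21) fell. On days 28 and 42 the same terms kept all 6 rises, and Podn (0.53 ± 0.19) was added on day 42. Fibroblast markers did not share the rise: on day 28, 2 of 10 rose and 2 fell, and the list summed to between 1030 and 2100 CPM in PBS and between 1580 and 2090 CPM after bleomycin. Their part in the result was not tested.

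ALK5 inhibition lowered 5 of the 6 genes that had risen in bleomycin skin; Prelp did not pass. Against vehicle, SB525334 lowered 6 of 9 members on day 21 (Bgn, Aspn, Lum, Fmod, Omd and Ogn) and 5 on day 28, the same without Fmod, and raised no member. Of all genes 6.02% fell and 5.81% rose on day 21, and 11.6% fell and 12.2% rose on day 28. The median of the 9 was -0.69 and -0.79, against -0.03 and 0.00 over all genes.

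The 3 neighbours of chromosome 13 showed the strongest responses. Ogn had 186, 284 and 346 CPM with vehicle and 36.8, 44.8 and 80.2 CPM with SB525334 on day 28, at -2.44 ± 0.25 (edgeR adjusted p = 2.07e-11). Omd had 12.5, 28.3 and 39.3 CPM with vehicle and 2.42, 4.08 and 9.98 CPM with SB525334, at -2.50 ± 0.28 (edgeR adjusted p = 2.04e-10), or 5.68-fold lower. Aspn had 555, 984 and 1419 CPM with vehicle and 87.2, 186 and 444 CPM with SB525334, at -2.24 ± 0.30 (edgeR adjusted p = 2.07e-08). In each of these, all 8 treated skins lay below every vehicle skin. On day 21 the log2 fold changes were -1.31 ± 0.24, -1.53 ± 0.27 and -1.17 ± 0.28 in the same order, with overlapping groups.

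Bgn, at 620, 691 and 883 CPM with vehicle, had 166, 305 and 578 CPM with SB525334 on day 28, and fell by 1.10 ± 0.18 after a drop by 0.69 ± 0.17 on day 21. Lum fell by 0.79 ± 0.20 on day 28, from 839, 1026 and 1278 CPM to 450, 582 and 734 CPM, and by 0.61 ± 0.20 on day 21. The groups of day 28 were apart for both genes. The day 21 call of Fmod (-0.95 ± 0.30) was lost in 4 of 10 alternative fits, and that of Lum was lost without any 1 of vehicle replicates 2, 4, 5 and 7 and treated replicates 1, 4 and 8, with adjusted p up to 0.0882 (limma-trend). Dcn was at -0.47 ± 0.18 and -0.19 ± 0.19, Prelp at -0.32 ± 0.17 and -0.26 ± 0.17 and Podn at -0.40 ± 0.24 and -0.35 ± 0.24. With hair and skeletal muscle scores as terms these 3 passed on both days, at -0.71 ± 0.14 and -0.46 ± 0.14 for Dcn, and that fit called 2850 of all genes on day 28.

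The inhibitor effect of day 28 minus that of day 21 was called for 0 of 9 members in skin and 0 in lung by edgeR, against 0.0569% and 0.173% of all genes. At an unadjusted p below 0.05 there were 3 members in skin and 0 in lung, and no other tool was run on this difference. The shares above are of adjusted calls, and that of all genes at the unadjusted threshold is not given, so this count has no background. In skin the 3 were Ogn (-1.14 ± 0.34), Aspn (-1.07 ± 0.41) and Omd (-0.97 ± 0.38), chosen after their values were seen. Tendon and fascia markers (such as Tnmd and Cilp) were lower with SB525334 as well, 3 of 6 on day 21 and 4 of 6 on day 28, where the list summed to 235 to 488 CPM with vehicle and 50.1 to 165 CPM with SB525334. Fibroblast markers fell in 6 of 10 cases on day 21 and in 2 of 10 on day 28, with sums of 1580 to 2090 CPM and 1120 to 1600 CPM on day 28. Hair transcripts had median sums of 627 CPM with vehicle and 8.1 CPM with SB525334 on day 21, and of 3920 and 130 CPM on day 28. Epidermal markers had median sums of 11000 and 22500 CPM on day 21 (6 of 10 rose), and of 10300 and 13400 CPM on day 28 (4 of 10 rose). With the hair and skeletal muscle scores as terms Ogn was -2.57 ± 0.24, Aspn -2.41 ± 0.29 and Omd -2.34 ± 0.29 on day 28. The part of the tendon, fibroblast and epidermal markers in the result was not tested.

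Set beside PBS skin, with which the vehicle comparison shares its controls, treated bleomycin skin kept some of the rise. Aspn was 0.87 ± 0.28 above PBS on day 21 and 0.90 ± 0.29 on day 28 (edgeR adjusted p = 0.016), where vehicle skin was 2.04 and 3.14 above. Bgn was 0.54 ± 0.17 and 0.71 ± 0.18 above, where vehicle skin was 1.23 and 1.81 above. Ogn instead lay below PBS, at -0.63 ± 0.23 and -0.75 ± 0.25, and Omd was at -0.45 ± 0.26 and -0.25 ± 0.28. In all 6 of 9 members differed from PBS on day 21 against 52.5% of all genes, among them Dcn at -0.80 ± 0.18, Fmod at -1.08 ± 0.29 and Podn at -0.96 ± 0.23. On day 28 it was 4 of 9 against 28.6%, with Prelp at 0.69 ± 0.18 as the remaining one.

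**Figure D3:**
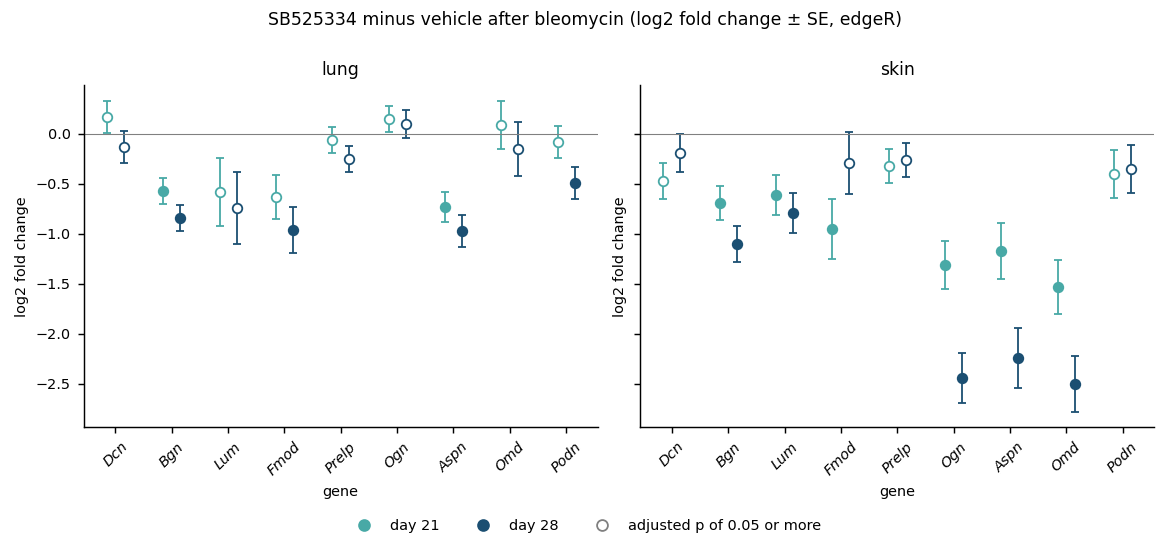
Log2 fold change ± SE of SB525334 minus vehicle after bleomycin for each SLRP gene on days 21 and 28, in lung (left) and skin (right). Filled symbols are calls at 0.05 by edgeR and open symbols are not called; in skin Ogn, Aspn and Omd reach -2.24 to -2.50 on day 28.

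In lung the changes went both ways. Ogn and Omd fell on each of the 5 days and Prelp on days 7, 14 and 21, while Bgn, Podn and Fmod rose on some days. The calls of day 28 were lost without the lungs of unusual composition, as given below. The numbers of members that rose and fell were 0 and 3 on day 7, 2 and 3 on day 14, 1 and 3 on day 21, 3 and 3 on day 28 and 2 and 2 on day 42. Of all genes 13.9% rose and 17.8% fell on day 7, 21% and 25.4% on day 14, 15.9% and 19.4% on day 21, 19.7% and 18.4% on day 28, and 12.6% and 6.77% on day 42. The median of the 9 lay between -0.29 and 0.19 over the 5 days, so the list as a whole had no common direction in lung.

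Ogn, the leading SLRP of PBS lung, had 391, 446 and 511 CPM in PBS and 208, 314 and 370 CPM after bleomycin on day 7. On day 14 the values were 433, 483 and 509 CPM against 189, 219 and 264 CPM, and on day 42 they were 463, 485 and 543 CPM against 157, 253 and 349 CPM. No bleomycin lung of days 7, 14, 21 or 42 reached the PBS range. The log2 fold changes were -0.53 ± 0.14, -1.08 ± 0.13 (edgeR adjusted p = 2.15e-10), -0.89 ± 0.14, -0.92 ± 0.14 and -1.0 ± 0.13 (adjusted p = 1.77e-08) from day 7 to day 42. Omd, its low-abundance neighbour, had 2.18, 4.32 and 5.43 CPM against 0.640, 0.991 and 1.65 CPM on day 14 and 2.82, 3.48 and 5.47 CPM against 1.09, 1.91 and 2.21 CPM on day 42, again without overlap. It fell by 0.90 ± 0.25, 1.86 ± 0.24, 0.95 ± 0.25, 0.96 ± 0.26 and 1.09 ± 0.24 over the 5 days. These levels rest on few reads, with a median of 42 counts of Omd per lung library. Aspn, the third gene of this cluster, did not share the drop in lung, with values from -0.16 ± 0.16 on day 7 to 0.34 ± 0.15 on day 42.

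Markers of other cell types moved with these genes in lung. On day 14 all 7 macrophage markers rose, and the list summed to 339 to 628 CPM in PBS and 745 to 1070 CPM after bleomycin. Of 7 endothelial markers 6 fell, with sums of 2850 to 3660 CPM and 2190 to 2840 CPM. Of 11 fibroblast markers 3 rose and 3 fell, with sums of 1410 to 1720 CPM and 1310 to 1700 CPM. On day 42 all 7 macrophage markers still rose and 3 of 7 endothelial markers fell, with sums of 2950 to 3810 CPM in PBS and 1790 to 3370 CPM after bleomycin. The part of these markers in the lung results was not tested.

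Prelp had 121, 152 and 181 CPM in PBS lung and 64.8, 96.8 and 121 CPM after bleomycin on day 7, and 127, 156 and 194 CPM against 57.2, 89.9 and 133 CPM on day 14. It fell by 0.67 ± 0.13, 0.78 ± 0.13 and 0.54 ± 0.13 on days 7, 14 and 21 and was at 0.11 ± 0.14 and -0.04 ± 0.13 on days 28 and 42. Its effect of day 42 exceeded that of day 14 by 0.74 ± 0.18 (edgeR adjusted p = 0.0027). By day 42 Prelp had 117 to 218 CPM in PBS and 103 to 191 CPM after bleomycin. The ranges overlapped, with the lowest bleomycin lung still below that of PBS.

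Bgn had 200, 217 and 306 CPM in PBS lung and 236, 285 and 396 CPM after bleomycin on day 14, and 197, 221 and 319 CPM against 267, 298 and 509 CPM on day 21. The groups overlapped, and every bleomycin lung was above the PBS mean. Bgn rose by 0.44 ± 0.13 and 0.50 ± 0.13 on these days. The first call was lost without the plate term (edgeR adjusted p = 0.0846). Podn rose by 0.47 ± 0.15 on day 14, a call lost without PBS replicate 3 (adjusted p = 0.0614, limma-trend), and by 0.80 ± 0.16 on day 42 (edgeR adjusted p = 5.51e-05). On day 42 its levels were 14.2, 18.0 and 20.4 CPM in PBS and 25.8, 31.5 and 32.9 CPM after bleomycin, with no overlap.

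Fmod was the late riser of lung. It had 3.79, 5.08 and 9.86 CPM in PBS and 7.95, 11.1 and 13.8 CPM after bleomycin on day 42, where 6 of 8 bleomycin lungs exceeded every PBS lung. Its log2 fold change moved from -0.29 ± 0.23 on day 7 over 0.13 ± 0.22 and 0.49 ± 0.22 to 1.03 ± 0.22 on day 42 (edgeR adjusted p = 0.000165), 0.91 ± 0.31 above that of day 14. Dcn and Lum, the leading SLRPs of skin, did not pass in lung on days 7, 14, 21 and 42. Lum in lung depended on the lungs with hair transcripts: on day 14 it had 6.32, 8.51 and 45.4 CPM in PBS and 11.9, 15.1 and 17.7 CPM after bleomycin, at 0.26 ± 0.34. Without PBS replicate 6 it was 0.89 (limma-trend), and without all lungs of unusual composition it was 0.92 (edgeR adjusted p = 0.00276). The liver-bearing bleomycin replicate 1 of day 42 had 12.2 CPM of Aspn against 25.0 to 40.8 CPM in the others. Without this lung alone, Aspn and Bgn passed on day 42 (adjusted p = 0.0234 and 0.0482, limma-trend). A further fit left out all 21 lungs of unusual composition, of which this was the only one in the groups of day 42. In that fit Aspn rose on day 42 by 0.46 and Bgn by 0.36 (edgeR adjusted p = 0.00456 and 0.00128).

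Day 28 of lung needs to be read with its libraries. In the fit of all libraries Fmod (1.18 ± 0.24), Bgn (0.61 ± 0.14) and Podn (0.43 ± 0.17) rose and Dcn (-0.51 ± 0.17), Ogn (-0.92 ± 0.14) and Omd (-0.96 ± 0.26) fell. Bgn spanned 183 to 582 CPM in PBS and 183 to 1067 CPM after bleomycin. The 4 bleomycin lungs high in ribosomal protein transcripts had 574 to 1067 CPM of Bgn, 9.51 to 34.4 CPM of Fmod and 99.9 to 285 CPM of Ogn. The 3 others had 183 to 446 CPM of Bgn, 4.2 to 7.41 CPM of Fmod and 183 to 456 CPM of Ogn. Without the lungs of unusual composition, which left 2 bleomycin and 5 PBS lungs, edgeR called 32 of all genes and 0 members (1 at an unadjusted p below 0.05), so the calls say little and the values are given. Bgn was then -0.01, Fmod -0.13, Podn -0.16 and Ogn -0.21. Omd ran from -1.35 to -0.05 over the 10 alternative fits and was called in 8. Within plates it was at -1.25 in P1 and 0.08 in P2. In fits without 1 lung, the call of Dcn was lost without bleomycin replicate 3, 4 or 5 or PBS replicate 6, and that of Podn without bleomycin replicate 1, 3, 4 or 5 or PBS replicate 3, 4, 5 or 7, with adjusted p up to 0.138 and 0.114 (limma-trend). Of the 6 called members, 2 had the same sign in both plates, whereas on the other days of both tissues every called member did. All 12 lungs of day 28 with a raised ribosomal share were on the same plate. The part of the ribosomal protein share in these values was not tested.

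**Figure D4:**
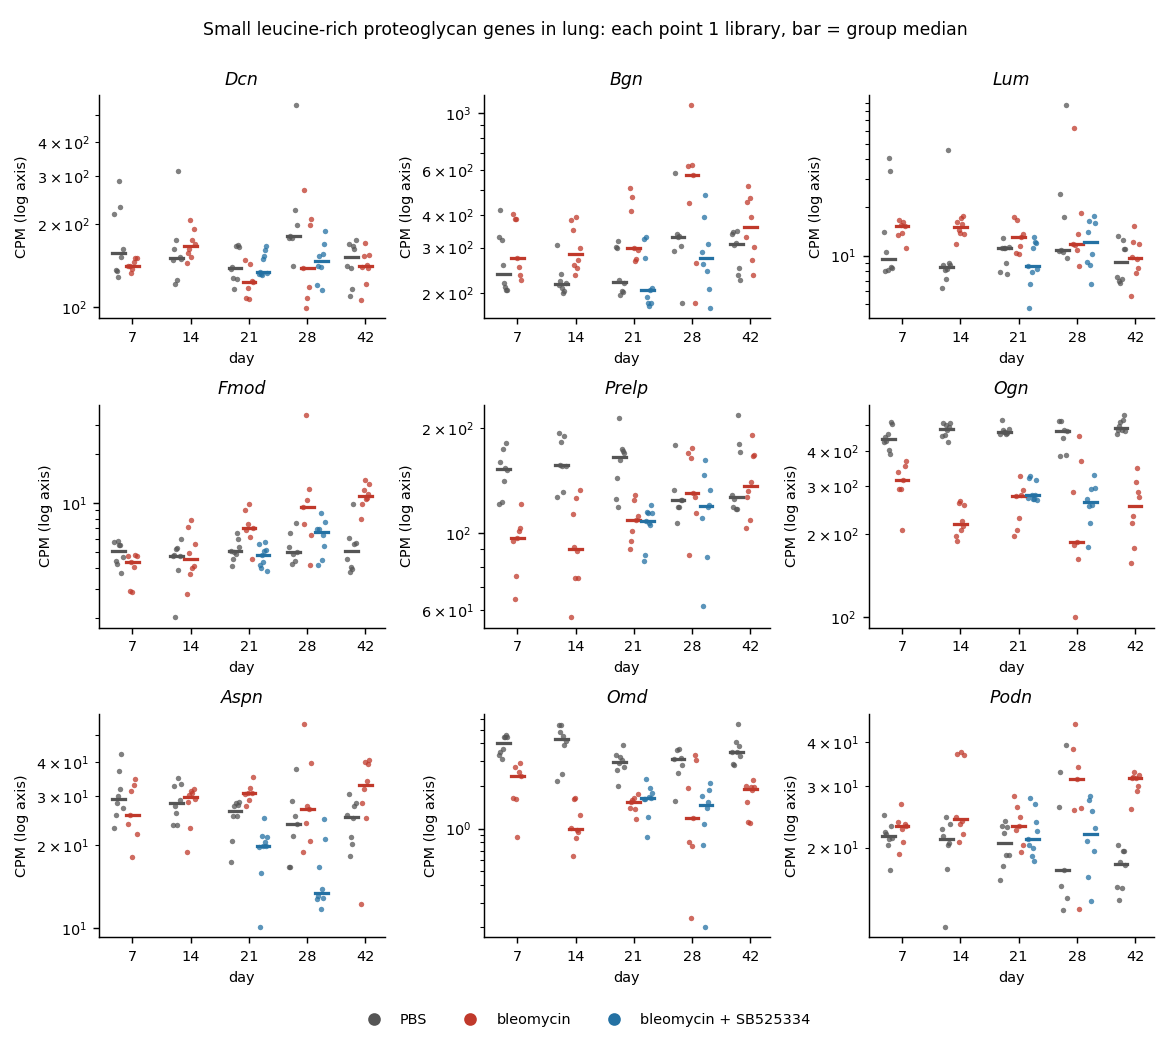
Level of each SLRP gene in every lung library, in CPM on a log axis, by day, for PBS, bleomycin and bleomycin with SB525334. Points are libraries and bars are group medians; Ogn after bleomycin lies below the PBS lungs except on day 28, where the bleomycin lungs run from 99.9 to 456 CPM.

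SB525334 lowered Bgn and Aspn in bleomycin lung on day 21, when 0.224% of all genes fell and 0.179% rose. Aspn had 27.7, 30.8 and 35.2 CPM with vehicle and 10.1, 19.8 and 25.1 CPM with SB525334, without overlap, at -0.73 ± 0.15 (edgeR adjusted p = 0.00542). Bgn had 267, 298 and 509 CPM with vehicle and 178, 205 and 329 CPM with SB525334, at -0.57 ± 0.13 (edgeR adjusted p = 0.0115). Without the plate term the values were -0.68 and -0.64 and neither passed (edgeR adjusted p = 0.0582 and 0.229), in a fit that called 42 of all genes. The genes that bleomycin had lowered did not return: Ogn was at 0.15 ± 0.13, Omd at 0.09 ± 0.24 and Prelp at -0.06 ± 0.13. On day 21 Fmod was at -0.63 ± 0.22 (edgeR adjusted p = 0.258).

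On day 28 SB525334 lowered Bgn (-0.84 ± 0.13), Aspn (-0.97 ± 0.16), Fmod (-0.96 ± 0.23) and Podn (-0.49 ± 0.16), against 5.73% of all genes that fell and 2.64% that rose. These values rest on the same doubtful lungs. Without the lungs of unusual composition, with 2 libraries left on each side, edgeR called 22 of all genes and 0 members (1 at an unadjusted p below 0.05), and Bgn was -0.20, Aspn -0.39, Fmod 0.31 and Podn 0.12. The sign was the same in both plates for Bgn and Aspn and not for Fmod and Podn. The call of Podn passed in 2 of 10 alternative fits, and that of Fmod in 7. Leaving out any 1 of 8 lungs (vehicle replicates 2, 3 and 4, treated replicates 1, 2, 3, 5 and 6) ended the call of Fmod, with values up to -0.34 (limma-trend).

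Compared with PBS lung, 4 of 9 members of SB525334-treated bleomycin lung differed on day 21 (34.6% of all genes) and 5 on day 28 (51.8%), all of them lower. On day 21 they were Omd (-0.86 ± 0.23), Ogn (-0.73 ± 0.13), Prelp (-0.60 ± 0.12) and Aspn (-0.40 ± 0.15), and vehicle lung of that day, which shares the PBS controls, was at -0.95, -0.89, -0.54 and 0.33. On day 28 they were Omd (-1.11 ± 0.26), Lum (-0.90 ± 0.36), Ogn (-0.81 ± 0.14), Dcn (-0.63 ± 0.16) and Aspn (-0.63 ± 0.16). Of these 8 treated lungs, 6 were of unusual composition. The difference in Lum goes with PBS replicate 6, at 86.3 CPM of Lum against 9.63 to 24.3 CPM in the other PBS lungs and 543 CPM of Dcn against 141 to 226 CPM. The median of Lum was 12.2 CPM in treated and 10.9 CPM in PBS lungs.

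The time course differed between the tissues. The bleomycin effect differed between days for 9 of 9 members in skin (62% of all genes) and for Fmod and Prelp in lung (26.5%). From day 14 to day 42 it shifted upward for all 9 in skin, by 1.19 ± 0.24 for Bgn up to 3.42 ± 0.34 for Ogn, against 50.9% of genes that shifted either way. In lung the 2 shifted, against 15.3%. PBS mice also drifted between days, for Ogn and Podn in skin (55.2% of all genes) and Dcn and Lum in lung (21.7%). For Lum in PBS lung the medians of the 5 days, from 8.51 to 11.1 CPM, were close, while the means, from 9.49 to 24.2 CPM, were raised on days 7 and 14 by the lungs with hair transcripts and on day 28 by replicate 6.

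The difference of the effects, skin minus lung, was called for 3 of 9 members on day 7 (16.6% of all genes), 7 on day 14 (32.3%), 6 on day 21 (30.1%), 7 on day 28 (26%) and 5 on day 42 (12.1%). On day 14 it was negative in the called members, led by Podn (-2.60 ± 0.29) and Dcn (-2.17 ± 0.24), which in lung stood at 0.47 and 0.02. From day 21 on it was positive for Bgn, Prelp, Ogn, Aspn and Omd. On day 42 it was 2.16 ± 0.35 for Omd and 1.75 ± 0.27 for Ogn (edgeR adjusted p = 3.28e-07), genes that rose in skin while they fell in lung. For Fmod the difference was negative on day 28, at -1.63 ± 0.40. Its rise in lung of that day was not seen without the lungs of unusual composition (-0.13). Its sign there also differed between plates, at 1.24 in P1 and -0.23 in P2. Omd and Prelp fell in both tissues on day 14, and their differences of -0.07 ± 0.38 and -0.20 ± 0.21 did not pass.

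**Figure D5:**
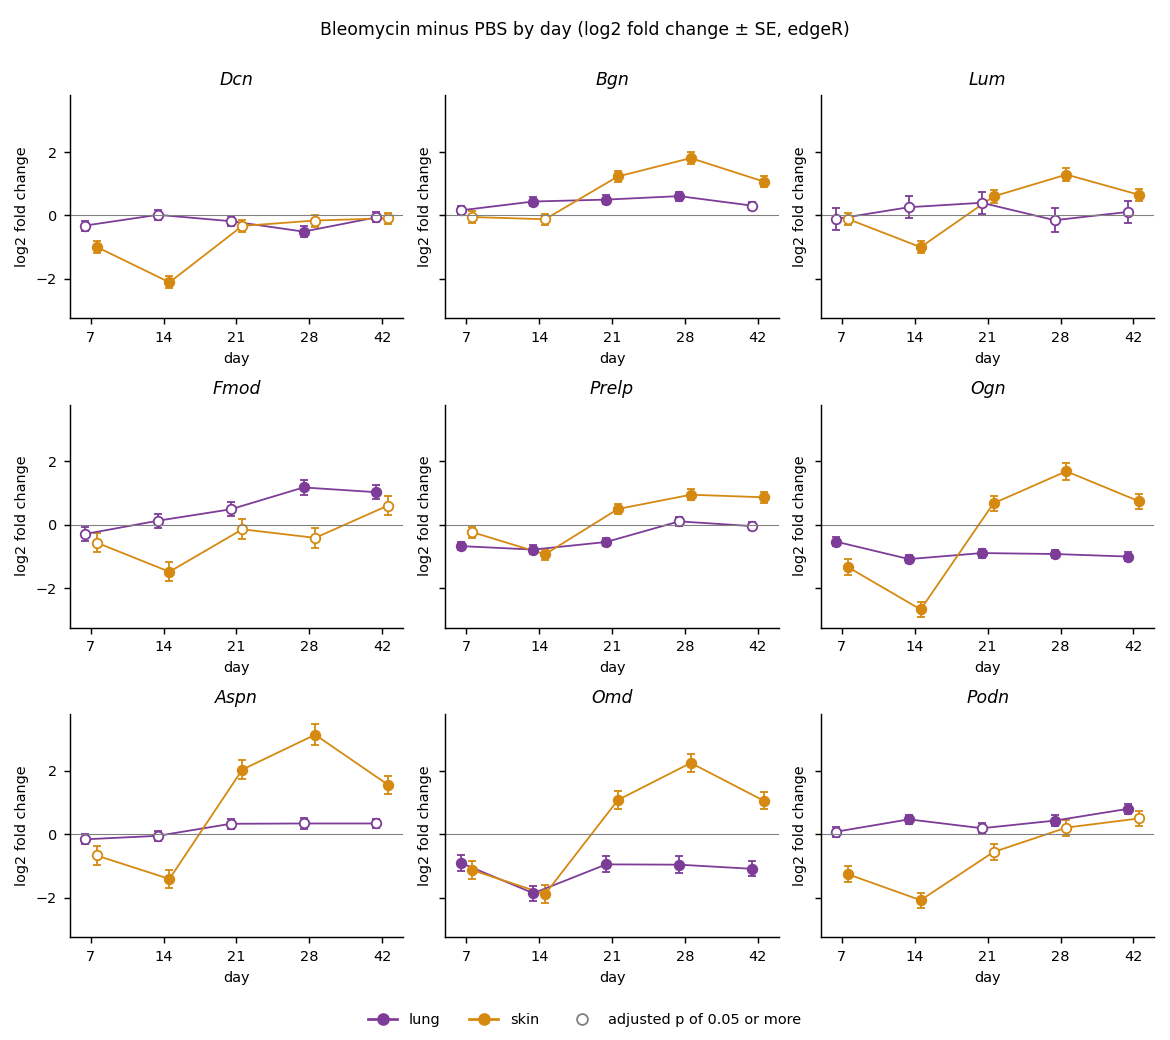
Log2 fold change ± SE of bleomycin minus PBS for each SLRP gene by day, in lung and skin. Filled symbols are calls at 0.05 by edgeR and open symbols are not called; skin Ogn runs from -2.67 on day 14 to 1.69 on day 28, while lung Ogn stays between -0.53 and -1.08.

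Ratios of 2 genes within a library do not depend on its scaling, and 3 were compared by two-sided exact permutation tests, with p adjusted over 42 tests. The log2 ratio of Bgn to Dcn (of CPM + 0.5) rose in bleomycin skin on all 5 days. It went from -4.09 ± 0.45 (SD, n = 8) in PBS to -2.07 ± 0.50 (n = 8) on day 14 (exact permutation adjusted p = 0.00105), when Dcn fell, and from -3.22 ± 0.92 (n = 7) to -1.29 ± 0.28 (n = 7) on day 28 (exact permutation adjusted p = 0.00261), when Bgn rose. SB525334 lowered it to -2.28 ± 0.53 (n = 8) on day 28 (exact permutation adjusted p = 0.00297). In lung it rose on day 21 by 0.73 (exact permutation adjusted p = 0.0175) and fell with SB525334 by 0.85 (exact permutation adjusted p = 0.00883).

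The ratio of Aspn to its neighbour Ogn also rose in both tissues. In skin it was higher after bleomycin on all 5 days, by 0.62 on day 7 up to 1.46 on day 28, and in lung on days 14, 21, 28 and 42, by 1.04 to 1.31; without the lungs of unusual composition the value of day 28 was 0.41 and did not pass. With SB525334 its difference from vehicle in skin was 0.22 on day 21 and 0.07 on day 28 (exact permutation adjusted p = 0.473 and 0.811), where both genes fell. In lung of day 21, where Aspn fell and Ogn did not, it dropped by 0.87 (exact permutation adjusted p = 0.00105). The ratio of Fmod to Lum rose by 0.93 in lung on day 42 (exact permutation adjusted p = 0.00105) and dropped by 1.55 in skin on day 28 (exact permutation adjusted p = 0.00408), where SB525334 raised it by 0.48 (exact permutation adjusted p = 0.0249). In lung of days 7 and 14 its differences were -0.39 and -0.46 and did not pass. Without the lungs of unusual composition they were -0.73 and -0.79 (exact permutation adjusted p = 0.0144 and 0.02).

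Counts in the gene lists that follow stand beside these shares of all genes, and the genes named are among those with the smallest p. In skin, 31.5% rose and 28.1% fell on day 14, and 12.7% and 11.6% on day 28. With SB525334 in skin of day 28, 12.2% rose and 11.6% fell. In lung, 21% rose and 25.4% fell on day 14, and 12.6% and 6.77% on day 42. The other SLRP genes, of which 8 were tested in skin and 7 in lung, followed in part. In skin of day 14, 5 fell and 2 rose. Ecm2, which adjoins Aspn on chromosome 13, fell by 2.97 ± 0.24, and Epyc (epiphycan), in the cluster of Dcn and Lum, fell by 2.15 ± 0.67, while Podnl1 (the relative of podocan) rose by 1.25 ± 0.41. On day 28 Podnl1 (3.09 ± 0.46), Tsku (tsukushi, 0.97 ± 0.11) and Kera (keratocan, 0.88 ± 0.27) rose, and all 3 fell with SB525334, as did Ecm2 (-1.34 ± 0.23). In lung Ecm2 fell on day 14 by 1.40 ± 0.15 and on day 42 by 0.72 ± 0.15, like its neighbours Ogn and Omd.

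Collagens and collagen-binding partners of SLRPs, 11 genes, turned over time in skin as the members did. On day 14, 9 fell and 1 rose, with Tnxb (tenascin X) at -2.75 ± 0.30, Col14a1 at -2.11 ± 0.25, Col1a2 at -1.39 ± 0.24 and Col12a1 the riser at 1.34 ± 0.29. On day 28, 10 rose at a median of 1.76, among them Col12a1 (2.57 ± 0.32), Col5a2 (1.95 ± 0.21) and Col3a1 (1.95 ± 0.26), and 10 fell with SB525334 at a median of -1.06. In lung 8 rose and 1 fell on day 14, led by Col5a2 (1.36 ± 0.23) and Col3a1 (1.06 ± 0.25), with Tnxb at -0.74 ± 0.16. On day 21 the median of the list with SB525334 was -0.39 in lung.

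Enzymes that build the sugar chains were counted in 3 lists. Of 7 genes for the linker that joins chain and core, 1 rose and 1 fell in skin of day 14 (B4galt7 at 0.27 ± 0.07, Pxylp1 at -0.77 ± 0.13). Of 16 genes of chondroitin and dermatan sulfate synthesis, 9 fell in skin of day 14, led by the sulfotransferase Chst12 (-0.83 ± 0.15), and 9 rose on day 28, led by Dsel (1.14 ± 0.12), an epimerase that makes dermatan sulfate, and the chain synthase Chsy1 (1.08 ± 0.11). Both fell with SB525334, by 0.95 ± 0.11 and 0.46 ± 0.11. Of 6 keratan sulfate genes, 2 rose in skin of day 28, B4galt1 (0.52 ± 0.08) and the sulfotransferase Chst2 (0.75 ± 0.18). In lung of day 14, 8 of 15 chondroitin and dermatan sulfate genes fell, such as Chst15 (-0.63 ± 0.09), and 3 rose, such as Chsy3 (0.98 ± 0.17).

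Among 10 tested proteases that process or cleave SLRPs, 9 rose in skin of day 28, including Bmp1 (0.99 ± 0.12), which removes the propeptide of biglycan, and the metalloproteinases Mmp3 (1.98 ± 0.33) and Mmp2 (1.29 ± 0.22), and 7 fell with SB525334, Bmp1 by 0.65 ± 0.12. On day 14 of skin the aggrecanase Adamts4 (2.38 ± 0.34) and the collagenase Mmp13 (4.73 ± 0.75) rose and Adamts5 fell by 1.36 ± 0.13. In lung 7 rose on day 14 and 6 on day 42, with Mmp2 at 1.43 ± 0.16 and 1.35 ± 0.16, and Mmp2 fell with SB525334 on day 21 by 0.71 ± 0.16.

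Of 16 receptors and growth factors that bind SLRPs, 7 rose and 5 fell in skin of day 14, near the 31.5% and 28.1% of all genes. The biglycan receptor Tlr2 rose by 1.75 ± 0.22 and Nlrp3, of the inflammasome, by 4.08 ± 0.45, while Igf1r, a decorin-binding receptor, fell by 0.67 ± 0.08 and Tgfb2 by 0.80 ± 0.17. On day 28 Tgfb3 rose by 1.25 ± 0.18 and then fell by 0.74 ± 0.17 with SB525334. In lung of day 14 Tlr2 rose by 0.95 ± 0.10, and Met and Kdr, receptors that decorin can bind, fell by 0.64 ± 0.09 and 0.73 ± 0.13. Of 22 other proteoglycan genes, 7 rose and 6 fell in skin of day 28, with Vcan (versican) at 1.64 ± 0.23 and Sdc2 (syndecan) at 1.21 ± 0.14. Vcan also rose in lung of day 14, by 1.78 ± 0.25.

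The genes whose plate-adjusted log2 CPM was most like that of each member over the 93 libraries of a tissue are given as a description; the libraries share treatment groups and depth. In skin Dcn was most like Cd34 (Pearson r = 0.96) and Cped1 (0.95), Bgn was most like Col5a2 (0.96) and Cdh11 (0.95), Aspn was most like Fkbp7 (0.95) and Col5a2 (0.94), and Lum was most like Fkbp7 (0.94) and Mmp2 (0.93). Podn went with Timp2 (0.93), Omd with Itgbl1 (0.91), Ogn with Gulp1 (0.90), Prelp with Aebp1 (0.89) and Fmod with Jam2 (0.85). In lung Ogn was most like Gsn (0.95) and Gria1 (0.93), Prelp was most like Cbfa2t3 (0.90), Fmod was most like Ltbp3 (0.86), Omd was most like Cyp2j9 (0.85) and Bgn was most like Col1a1 (0.75).

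Members also differed in how they went together. Over 93 skins r was 0.90 for Bgn with Aspn, 0.90 for Dcn with Podn, 0.86 for Ogn with Omd and 0.13 for Bgn with Dcn. After group means were removed, r was 0.72, 0.84, 0.67 and 0.03. Over 93 lungs r was 0.85 for Ogn with Omd, 0.71 for Bgn with Podn and 0.14 for Aspn with Omd, and -0.55 for Bgn with Ogn. The neighbours Aspn, Omd and Ogn thus varied together in skin (r of 0.68 to 0.86), while in lung Aspn had r of 0.01 with Ogn.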

How the data were processed

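Per the submitters' processing notes the deposited table holds expected counts per gene made with RSEM on GRCm38, with edgeR also named; aligner and versions are not given in the sources used here. A second table deposited by the authors holds log2 values that its name calls plate corrected, and it served only as an alternative. Expected counts, of which 83.7% were whole, were rounded, filtered with filterByExpr, scaled by TMM and fitted with edgeR 4.0.16 (R 4.3.3) over the 12 groups of a tissue plus plate, or over both tissues with plate within tissue. The SE was taken as the log2 fold change over the root of F. 15647 lung and 15825 skin genes were tested, and the code was tested on simulated data. 10 alternatives were run, with DESeq2 1.42.0 and limma 3.58.1 among them; leaving out each library with limma-trend was chosen after seeing the data. Members and lists were chosen with earlier results of these data known. Besides the members, up to 4 genes a list with the smallest p and 2 of the opposite direction could be named, with the 3 genes most like each member. A lung was called unusual where its 10 leading genes or ribosomal protein genes held over 1.5 times the median share, or a foreign marker list over 10 times its median and 100 CPM. The labels do not tie libraries of the tissues to 1 mouse, so they were treated as independent. The p-values set differences against the spread between these samples. Over 14 comparisons the correlation of same-numbered libraries ran from -0.54 to 0.58 and in no comparison was over 0.1 for every pair, so the replicate number was a block only in an alternative.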

Additional observations from a re-analysis of the deposited data

Results flagged for a closer look

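Single libraries stood apart from the rest of their group in 18 of 216 sets of CPM values tested; chance alone gives about 1 in 20. In lung, PBS day 14 replicate 6, which held hair transcripts, had 314 CPM of Dcn (others 121 to 176) and 45.4 CPM of Lum (6.32 to 9.04). PBS day 28 replicate 6, which did not stand out in hair transcripts, had 543 CPM of Dcn (141 to 226) and 86.3 CPM of Lum (9.63 to 24.3). Bleomycin day 28 replicate 2, with epidermal and muscle transcripts, had 62.7 CPM of Lum (8.62 to 18.4). The liver-bearing bleomycin replicate 1 of day 42 had 12.2 CPM of Aspn (25 to 40.8). PBS day 14 replicate 3 was low in Fmod, at 2.01 CPM (3.9 to 6.05), and in Podn, at 11.9 CPM (17.4 to 24.5), and replicate 1 was high in Bgn, at 306 CPM (200 to 237). The remaining lungs were bleomycin day 7 replicate 4 with 208 CPM of Ogn (291 to 370), PBS day 21 replicate 2 with 520 CPM of Ogn (461 to 484) and PBS day 28 replicate 2 with 179 CPM of Prelp (107 to 133).

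In skin, PBS day 7 replicate 8, in which 10 genes held many counts, had 326 CPM of Aspn (108 to 180), and replicate 6 had 9.51 CPM of Fmod (15.5 to 21.1). Bleomycin day 14 replicate 1 had 142 CPM of Lum (218 to 306), bleomycin day 28 replicate 7 had 18.7 CPM of Fmod (11.1 to 13.9), PBS day 42 replicate 6 had 107 CPM of Bgn (147 to 191) and PBS day 42 replicate 4 had 2.5 CPM of Omd (5.9 to 11.6).

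The bleomycin effect differed between day 42 and day 14 by an interaction test in edgeR. On the log2 scale the later effect was higher by 0.91 for Fmod and 0.74 for Prelp in lung. In skin it was higher by 2.01 for Dcn, 1.19 for Bgn, 1.65 for Lum, 2.09 for Fmod, 1.8 for Prelp, 3.42 for Ogn, 2.97 for Aspn, 2.95 for Omd and 2.59 for Podn.

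The effect also differed between tissues, as skin minus lung on the log2 scale. On day 7 the difference was -0.71 for Dcn, -0.84 for Ogn and -1.39 for Podn. On day 14 it was -2.17 for Dcn, -0.60 for Bgn, -1.30 for Lum, -1.66 for Fmod, -1.63 for Ogn, -1.41 for Aspn and -2.60 for Podn. On day 21 it was 0.68 for Bgn, 0.98 for Prelp, 1.51 for Ogn, 1.65 for Aspn, 1.98 for Omd and -0.81 for Podn. On day 28 it was 1.18 for Bgn, 1.41 for Lum, -1.63 for Fmod, 0.81 for Prelp, 2.58 for Ogn, 2.76 for Aspn and 3.19 for Omd. On day 42 it was 0.77 for Bgn, 0.92 for Prelp, 1.75 for Ogn, 1.23 for Aspn and 2.16 for Omd. The values of day 28 include lungs of unusual composition.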

How the results depend on the processing

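The 8 calls in skin of day 14, the 6 of day 28 and the 5 with SB525334 on day 28 were kept in each of 10 alternatives. Fitting only the groups compared gave 7 called members in lung of day 21 (8719 of all genes), 0 in lung of day 28 for bleomycin (120) and 0 for SB525334 (0 of all genes, so that the count says nothing of the members; 4 members each at an unadjusted p below 0.05 in edgeR), and 3 in skin of day 42 (387), where Lum (0.65), Prelp (0.88) and Ogn (0.76) no longer passed. Without lungs of unusual composition 0 members were called on day 28 for bleomycin (32 of all genes) and 0 for SB525334 (22; 1 member each unadjusted), and the direction turned for Bgn (-0.01), Fmod (-0.13) and Podn (-0.16) after bleomycin, for Fmod (0.31) and Podn (0.12) with SB525334 and for the ratio of Aspn to Ogn with SB525334 (0.07). Without the plate term SB525334 called 0 members in lung of day 21 (42 of all genes; 3 members unadjusted). Limma voom called 1 with SB525334 in lung of day 28 (43 of all genes), and marker scores as terms called 8 with SB525334 in skin of day 28 (2850). The cause of these shifts was not tested, except that 2 lungs on a side remained in the fits without unusual lungs for SB525334.

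With the replicate block 124 of 126 member results kept their side of the threshold; Podn in lung with SB525334 on day 28 (-0.51) and Fmod in skin with SB525334 on day 21 (-0.91) did not, and no other call changed. Depth limits Omd in lung most, with 1 to 132 counts per library.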
